A study of Mus musculus with 6 samples.

Results

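The 36 genes described here encode the glucose carriers, the glycolytic enzymes, the proteins that handle pyruvate and lactate, the oxygen-sensing machinery of the cell and a set of transcripts that respond to low oxygen. They were chosen by gene symbol as a module of glycolysis and hypoxia response, from the 34745 genes of a fragment count table. RNA was sequenced from primary renal fibroblasts of wild-type (WT) mice, cells that lay down matrix and were isolated from enzyme-treated kidney tissue. The fibroblasts were cultured alone (3 libraries) or below a porous transwell insert holding induced Th17 cells, the helper T cells that secrete interleukin-17, for 24 h (3 libraries). Medium was shared and contact was not, and only the fibroblasts in the lower chamber were harvested. Whether the wells cultured alone also held an empty insert was not stated, and neither were the oxygen and glucose levels in the wells. The sources used here do not say if replicates are separate cultures or animals, so every SD, SE and p below measures the spread among these libraries only, which may be technical.

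Glycolysis splits glucose into pyruvate in the cytosol, and lactate dehydrogenase turns pyruvate into lactate that leaves the cell through monocarboxylate carriers. Many genes of the pathway are targets of the hypoxia-inducible factors (HIF). The HIF alpha subunits are marked for destruction by prolyl hydroxylases when oxygen is present, and when it is scarce they pair with a beta subunit and bind DNA at a short core sequence. This control acts on the protein, so the amount of Hif1a mRNA does not report HIF activity. In kidney fibroblasts the same factors act on matrix-modifying enzymes and, in some cells, on erythropoietin.

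Library totals lay between 12050529 and 13209581 counts, and no library was a copy of another. At this depth 3 counts, taken as the floor of detection, corresponded to 0.223 to 0.254 CPM. CPM is the count of a gene relative to its library total, rescaled by the trimmed mean of M-values (TMM). Fibroblast markers were abundant in every library, with a summed level of 54580 to 56760 CPM in cells cultured alone and 27370 to 31420 CPM in cocultured cells. Of 20 T cell markers, 8 were at 0 counts in all 6 libraries, among them Il17a, Il17f and Cd3d, and the list summed to 4.79 to 9.64 CPM. Macrophage markers were low and moved with the groups: the 15 genes summed to 67.7 to 73.3 CPM in cells cultured alone and to 20.5 to 21.8 CPM in cocultured cells, where 5 of them were at 0. The 12 epithelial markers summed to 22.5 to 24.4 against 8.06 to 9.35 CPM and the 10 endothelial markers to 10.4 to 12 against 5.58 to 6.21 CPM. In RNA from whole wells, fewer cells of a type and less RNA per cell cannot be told apart, and the part of these minor cells in the results below was not tested.

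All 36 members passed the filter on low counts and were tested. With Th17 cells, 18 members fell, 5 rose and 13 did not pass an adjusted p of 0.05 in edgeR's quasi-likelihood test, adjusted over 13088 genes. The members that fell made up 50% of the module, where 20% of all genes tested were called lower. Members that rose made up 13.9%, where 17.1% of all genes were called higher. The 5 that rose became 2 without alone replicate 1 or 3, 3 without Th17 replicate 2 and 2 in DESeq2. The members were deeper than most genes, with a median of 3309 against 310 counts per library, and the test calls smaller changes at higher counts. Among genes with a mean of at least 1000 counts, 25.1% of 2729 were called lower and 24.3% higher, and of the 24 members at that depth 13 fell (54.2%) and 3 rose (12.5%). Most of the changes were small. With a fold change above 2 also required, Slc2a3, Car9 and Ndrg1 fell (8.33% of the members, 7.78% of all genes) and Epas1 rose (2.78% of the members, 3.87% of all genes), shares near the background. The CPM ranges of the groups were separate in 25 members (69.4%) and in 50.4% of all genes. The median log2 fold change was -0.21 over the members and 0.00382 over all genes.

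**Figure D1:**
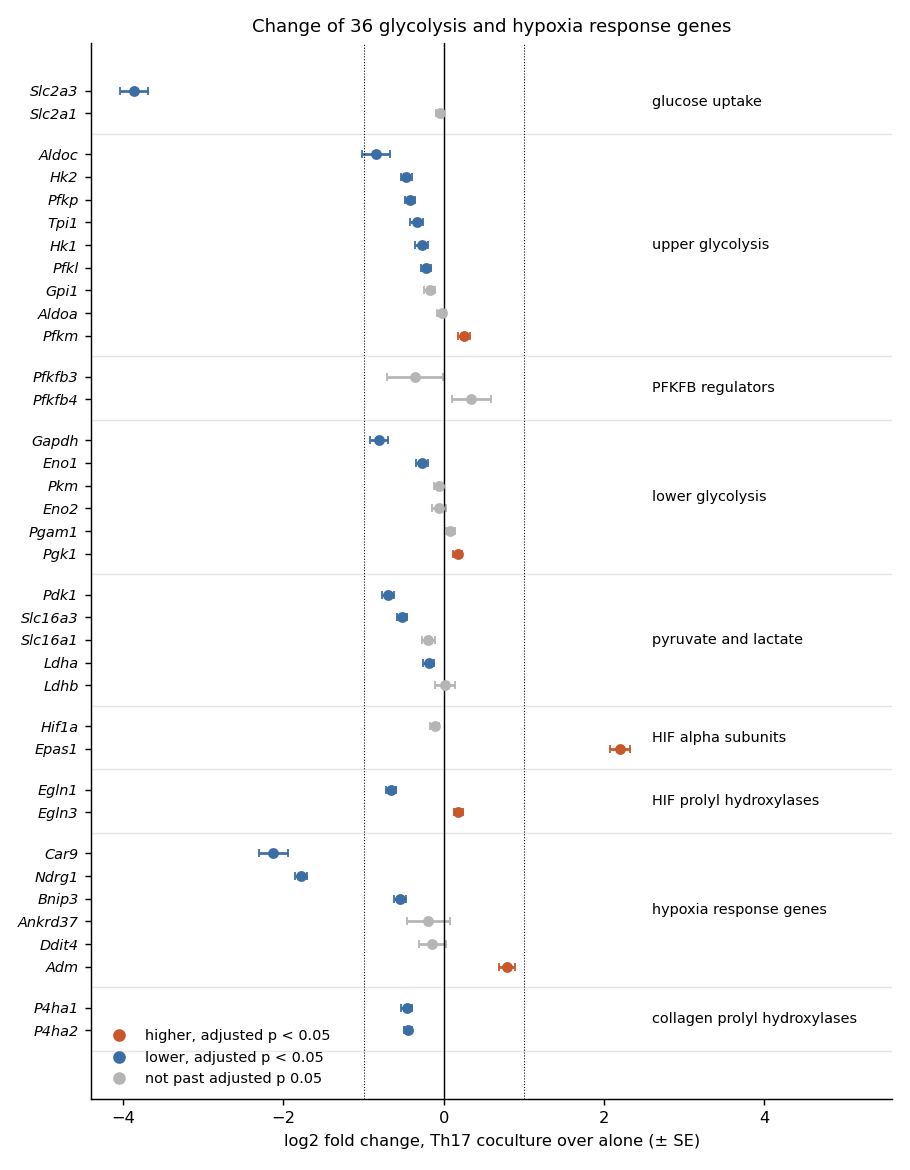
Log2 fold change of each of the 36 members (x axis, Th17 coculture over alone, bars ± SE from the edgeR fit), grouped by role; red points were higher, blue points lower and grey points not past adjusted p 0.05, and dotted lines mark a fold change of 2. Of the 36 points, 18 are blue, 5 are red, and Slc2a3, Car9 and Ndrg1 lie left and Epas1 right of the dotted lines.

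The module took a small part of each library. Its 36 genes held 1.67%, 1.73% and 1.70% of all counts in the libraries cultured alone and 1.52%, 1.59% and 1.59% in the cocultured libraries, so the share was lower in every cocultured library (exact two-sided permutation test, p = 0.1, the smallest that 3 against 3 libraries allow). For the 17 enzymes from hexokinase to lactate dehydrogenase the share was 1.16% ± 0.022 alone and 1.12% ± 0.046 with Th17 cells (SD, n = 3), and these groups overlapped (exact permutation test, p = 0.5). Thus the difference in summed enzyme transcripts lay within the spread between libraries.

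Of the members that rose, Epas1 had the largest log2 fold change in the edgeR fit. Epas1 (chr17:86753907-86833410, plus strand, GRCm38) encodes HIF-2 alpha, the subunit that drives erythropoietin in kidney interstitial cells. It had 130, 177 and 142 counts in the libraries cultured alone and 774, 727 and 668 counts in the cocultured libraries, or 12 ± 1.9 against 55.2 ± 3.8 CPM (SD, n = 3). Every cocultured library lay above every library cultured alone, and the mean was 4.59 times higher (log2 fold change 2.20, SE 0.12, adjusted p = 1.39e-06). Hif1a (chr12:73901375-73947530, plus strand) encodes HIF-1 alpha and was by far the more abundant of the alpha subunits. It stood at 1127, 1069 and 1113 CPM alone and at 1043, 946 and 1068 CPM with Th17 cells, and this difference did not pass the test (log2 fold change -0.11, SE 0.06, adjusted p = 0.176). Within each library, where no scaling enters, there were 0.895, 1.31 and 1.08 Epas1 counts per 100 Hif1a counts in cells cultured alone and 5.52, 6.04 and 4.76 in cocultured cells. The mean ratio went from 1.09 ± 0.21 to 5.44 ± 0.64 (SD, n = 3; exact two-sided permutation test, p = 0.1, the smallest possible). Hif1a thus remained the major transcript in both groups. Epo, the erythropoietin gene, had 1, 0 and 0 counts alone and 0 counts in every cocultured library. It was not tested, and it is named after its counts were seen.

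The prolyl hydroxylases that mark HIF alpha for degradation moved in opposite directions. Egln1 (chr8:124908596-124949254, minus strand) encodes PHD2, the main oxygen sensor of most cells. It stood at 273, 278 and 275 CPM alone and at 179, 185 and 161 CPM with Th17 cells, with no overlap, and fell by 0.66 on the log2 scale (SE 0.07, adjusted p = 5.95e-05). Egln3, which encodes PHD3 and is itself a HIF target, was at 232, 246 and 233 CPM alone and at 269, 276 and 261 CPM cocultured. This rise of 0.18 on the log2 scale (SE 0.06, adjusted p = 0.0332) was small, and its call was lost under 7 of 16 other settings, among them those without alone replicate 1 or 3 and without Th17 replicate 1 or 2. Counts of Egln1 per 100 counts of Egln3 went from 117 ± 2.9 to 65.1 ± 2.8 (SD, n = 3; exact permutation test, p = 0.1, the smallest possible). Per kb of transcript Egln3 was the higher in both groups, at 88.9 ± 2.9 against 76.7 ± 0.65 CPM per kb alone and at 101 ± 2.9 against 48.6 ± 3.4 CPM per kb cocultured (SD, n = 3).

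To place the hypoxia response members beside their regulatory sequence, the 250 bases before each RefSeq transcription start (GRCm38.p6) were searched for the HIF core letters ACGTG and GCGTG on the strand of the gene and on the opposite strand, where they read CACGT and CACGC. The letters ACGTG and CACGT overlap where a window holds CACGTG, which is also the E-box that other factors bind. Of the 36 members, 33 had a promoter in the sequence table, and Slc2a3, Ndrg1 and Epas1 did not. A core was present in 30 of the 33 (90.9%), in 62.1% of the 9613 genes tested that had a promoter in the table and in 41.5% of all 27025 genes listed. It was found in 15 of 16 members that fell, 4 of 4 that rose and 11 of 13 not called, so holding the letters did not separate the calls. Bases before the start are shown for Car9, Egln1, Bnip3, Pdk1 and Adm, 5 members with cores near the start and with changes in both directions, 5′ to 3′ on the strand of the gene with the cores in capitals. They lie at chr4:43506996-43507025 (plus), chr8:124949255-124949404 (minus), chr7:138909520-138909669 (minus), chr2:71873074-71873223 (plus) and chr7:110627507-110627656 (plus). The Car9 stretch lies before the RefSeq start but inside the gene as annotated in the count data (chr4:43506966-43513729). The other stretches end before both starts.
Car9: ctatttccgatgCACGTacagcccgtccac
Egln1: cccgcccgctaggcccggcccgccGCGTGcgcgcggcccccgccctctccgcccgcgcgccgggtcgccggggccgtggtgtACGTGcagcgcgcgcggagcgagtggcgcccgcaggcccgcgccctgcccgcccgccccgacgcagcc
Bnip3: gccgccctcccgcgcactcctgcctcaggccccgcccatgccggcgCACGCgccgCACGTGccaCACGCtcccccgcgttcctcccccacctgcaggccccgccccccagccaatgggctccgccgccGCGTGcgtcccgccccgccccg
Pdk1: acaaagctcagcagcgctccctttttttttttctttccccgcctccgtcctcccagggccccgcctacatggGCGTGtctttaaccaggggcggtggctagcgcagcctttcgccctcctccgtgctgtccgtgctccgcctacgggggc
Adm: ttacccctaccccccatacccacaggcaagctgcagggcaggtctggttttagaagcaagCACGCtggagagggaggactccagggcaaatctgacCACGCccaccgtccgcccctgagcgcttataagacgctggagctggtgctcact
Counted from the start, Car9 held its core at -18 on the opposite strand, and Adm held cores at -90 and -54, also on the opposite strand. Egln1 had GCGTG at -126 and ACGTG at -68, and Pdk1 had GCGTG at -78. Bnip3 had 5 cores between -117 and -35, of which a pair forms a CACGTG. The Bnip3 positions count from its RefSeq start, which lies beyond the end of the stretch shown. A match describes letters only, and binding was not measured.

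The hypoxia response genes did not move as a block: 3 of 6 fell, 1 rose and 2 did not pass the test. Over all genes tested, 20% were called lower and 17.1% higher. Car9 (chr4:43506966-43513729, plus strand) encodes carbonic anhydrase IX, a cell surface enzyme that buffers acid and is a classic HIF-1 target. It was scarce, with 208, 190 and 162 counts alone and 39, 56 and 39 counts cocultured (15 ± 1.2 against 3.42 ± 0.85 CPM, SD, n = 3), and it fell by 2.13 on the log2 scale (SE 0.18, adjusted p = 2.11e-05). Its exons overlap those of the opposite-strand gene Gm12454, whose mean count was 25.2, and the strand used for counting was not stated. Ndrg1 (chr15:66929321-66969640, minus strand) encodes a stress-responsive protein induced by hypoxia and by differentiation. Its levels were 479, 518 and 504 CPM alone against 147, 155 and 135 CPM with Th17 cells, a mean 0.291 times that of cells cultured alone. This fall of 1.78 on the log2 scale (SE 0.07, adjusted p = 1.53e-07) had the smallest adjusted p of the module, and the groups lay far apart.

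Bnip3, which encodes a mitochondrial receptor for mitophagy and whose window above held most cores of the 5 shown, stood at 424, 422 and 449 CPM alone and at 282, 281 and 325 CPM cocultured. No cocultured library reached the lowest library cultured alone, and the fall was 0.55 on the log2 scale (SE 0.07, adjusted p = 0.000341). Adm went the other way. It encodes adrenomedullin, a vasodilator peptide, and stood at 57.7, 54.7 and 60.5 CPM alone and at 109, 106 and 84.1 CPM with Th17 cells. The mean was 1.73 times higher without overlap of the groups (log2 fold change 0.79, SE 0.10, adjusted p = 0.000345). Ankrd37 (4.94 ± 0.41 against 4.32 ± 1.55 CPM) and Ddit4, the mTORC1 inhibitor REDD1 (85.7 ± 3.3 against 77.7 ± 22.1 CPM), did not pass the test (SD, n = 3, adjusted p = 0.613 and 0.541). Both spread more widely in the cocultured libraries: Ddit4 was at 103 CPM in Th17 replicate 1 and at 66.6 and 63.3 CPM in replicates 2 and 3. Without Th17 replicate 1, Ddit4 was called lower (log2 fold change -0.40 against -0.14 with all libraries, edgeR adjusted p = 0.00527). The exons of Ankrd37, with 34 to 75 counts per library, overlap those of the opposite-strand gene Ufsp2, which had a mean of 717 counts, so its level is uncertain.

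**Figure D2:**
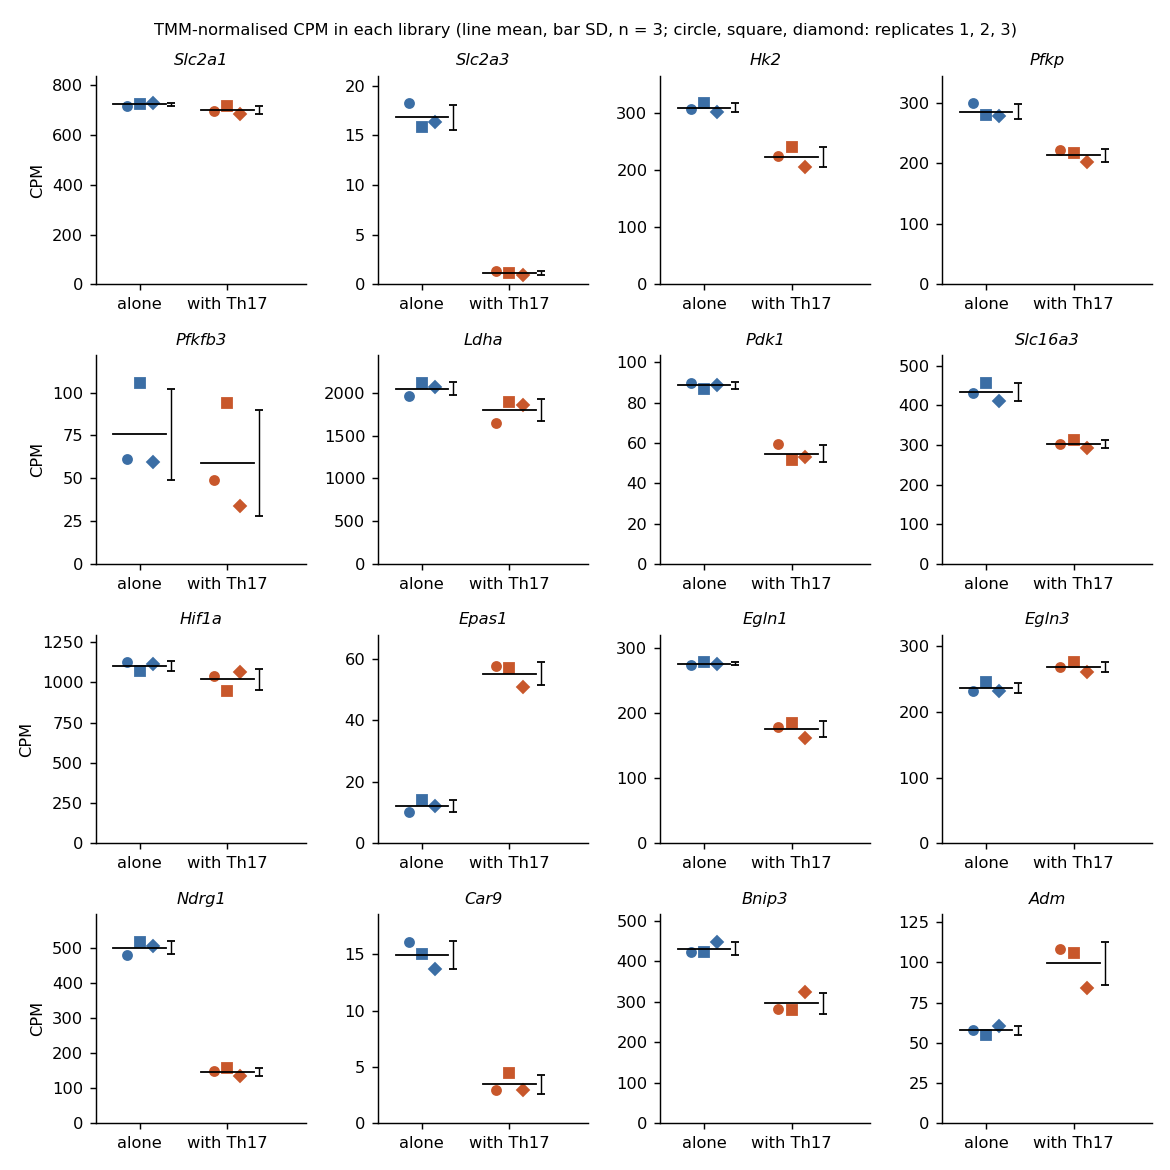
TMM-normalised CPM (y axis, linear from 0) of 16 members in each library of fibroblasts cultured alone (blue) and cocultured with Th17 cells (red); circle, square and diamond are replicates 1, 2 and 3, the line is the mean and the bar the SD (n = 3). Slc2a3, Ndrg1, Car9 and Epas1 are far apart between groups, Slc2a1 overlaps, and replicate 2 is the highest Pfkfb3 value in each group.

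Glucose enters fibroblasts mainly through GLUT1 and, in some cells, through the high-affinity carrier GLUT3. Slc2a1 (chr4:119108711-119137983, plus strand), which encodes GLUT1, was at 714, 725 and 728 CPM alone and at 698, 717 and 685 CPM cocultured. The groups overlapped and no change was called (log2 fold change -0.05, SE 0.05, adjusted p = 0.511). Slc2a3 (chr6:122727809-122801640, minus strand), which encodes GLUT3, stood at 18.2, 15.9 and 16.3 CPM alone and at 1.34, 1.10 and 0.989 CPM with Th17 cells. These are 193 to 235 counts against 13 to 18 counts, above the floor of 3 in every library. Slc2a3 fell by 3.87 on the log2 scale (SE 0.17, adjusted p = 3.02e-07), the largest change of the module, to 0.068 times its level in cells cultured alone. Per 100 Slc2a1 counts there were 2.33 ± 0.20 Slc2a3 counts alone and 0.163 ± 0.025 cocultured (SD, n = 3; exact permutation test, p = 0.1, the smallest possible), so GLUT3 mRNA was a minor part of these carriers in both groups. GLUT3 is also a carrier of leukocytes, and several macrophage markers moved the same way. Of the 7 tested, 6 were called lower (85.7%, against 20% of all genes tested). The other, Cd14, stood at 11.2 CPM in both groups and was not called. Lyz2 went from 27.6 ± 0.94 to 3.33 ± 0.39 CPM. Adgre1 went from between 47 and 71 counts to 0 counts in every cocultured library. These markers are named after their values were seen, and the part of macrophages in the fall of Slc2a3 was not tested.

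The upper steps of glycolysis, from hexokinase to triose phosphate, consume ATP to prepare the sugar for splitting. Of their 9 members, 6 fell and 1 rose, against 20% and 17.1% of all genes tested. Hk2, the inducible hexokinase that traps glucose in the cell, stood at 307, 317 and 302 CPM alone and at 224, 240 and 206 CPM with Th17 cells. It fell by 0.47 on the log2 scale without overlap (SE 0.07, adjusted p = 0.000665). Pfkp, the platelet-type phosphofructokinase of the committed step, was at 299, 279 and 278 CPM alone and at 221, 217 and 201 CPM cocultured, a fall of 0.42 (log2, SE 0.06, adjusted p = 0.000795). Its exons overlap those of the opposite-strand gene Pitrm1, with a mean of 1849 counts. Among its sister subunits, liver-type Pfkl fell by 0.22 (log2, adjusted p = 0.016; not called without alone replicate 2) and muscle-type Pfkm rose by 0.25 (log2, adjusted p = 0.0211). Pfkm made up 5.24 ± 0.19 of every 100 phosphofructokinase counts alone and 7.51 ± 0.32 cocultured (SD, n = 3; exact permutation test, p = 0.1, the smallest possible), so it remained the minor subunit. Pfkm overlaps the opposite-strand gene Senp1, which had a mean of 414 counts, and its call was lost without alone replicate 1 or 3 and in DESeq2.

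Tpi1, the triose phosphate isomerase, fell by 0.34 (log2, SE 0.08, adjusted p = 0.00758), from 1072 ± 32 to 847 ± 88 CPM (SD, n = 3). Hk1, the housekeeping hexokinase, fell by 0.28 (log2, SE 0.09, adjusted p = 0.032), but 7 of 16 other settings did not call it, among them the omission of alone replicate 1 or 2 or of Th17 replicate 1 or 3. There were 101 ± 8.9 Hk1 counts per 100 Hk2 counts alone and 116 ± 2.0 cocultured, without overlap (SD, n = 3; exact permutation test, p = 0.1, the smallest possible). Aldoa and Aldoc encode aldolases, which split fructose bisphosphate. Abundant Aldoa did not pass the test (1360 ± 21 against 1339 ± 69 CPM, adjusted p = 0.783), while scarce Aldoc fell from 7.53 ± 0.54 to 4.17 ± 0.72 CPM (SD, n = 3; log2 fold change -0.85, adjusted p = 0.00468). Gpi1, which interconverts glucose and fructose phosphates, did not pass the test (log2 fold change -0.18, SE 0.07, adjusted p = 0.0806).

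The bifunctional PFKFB enzymes set the level of fructose 2,6-bisphosphate, the activator of phosphofructokinase. Pfkfb3, the most glycolytic isoform, was at 61.5, 106 and 59.3 CPM alone and at 49.1, 93.9 and 34.1 CPM cocultured. Replicate 2 was the highest in both groups, the groups overlapped, and no change was called (log2 fold change -0.36, SE 0.35, adjusted p = 0.458). Without Th17 replicate 2 the log2 fold change was -0.86 with an adjusted p of 0.048. Pfkfb4 was near the bottom of the module at 7.57 ± 1.97 against 9.59 ± 2.78 CPM (SD, n = 3, adjusted p = 0.304).

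The lower steps return ATP, and 2 of their 6 members fell while 1 rose (20% and 17.1% of all genes tested). Gapdh (chr6:125161715-125166467, minus strand), glyceraldehyde phosphate dehydrogenase, was at 52.5, 52.1 and 54.7 CPM alone and at 33.9, 25.1 and 31.9 CPM cocultured. It fell by 0.81 on the log2 scale without overlap (SE 0.11, adjusted p = 0.000461). The level was far below that of its neighbours in the pathway, with 319 to 677 counts per library. GENCODE lists 78 other genes that match Gapdh at 95% identity or more over at least 200 bases, of which 6 are in the count table and 5 had counts. Together these 5 held 7.48% of the summed counts. How fragments that match several genes were assigned was not stated, and its exons overlap those of the opposite-strand gene Iffo1, with a mean of 170 counts, so the Gapdh row is uncertain. With the copies added the log2 fold change was -0.74.

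Eno1, the ubiquitous enolase, was at 371, 404 and 393 CPM alone and at 289, 333 and 343 CPM cocultured, a fall of 0.27 (log2, SE 0.08, adjusted p = 0.0191). Eno1b, which matches it at 99.5% over 1736 bases, held 63.8% of the counts of the pair, and with both summed the log2 fold change was -0.25. The call on Eno1 was lost under 5 of 16 other settings, among them the omission of alone replicate 2 or 3. Pgk1, the phosphoglycerate kinase of the first ATP-yielding step, rose by 0.17 (log2, SE 0.06, adjusted p = 0.044), from 1118 ± 35 to 1262 ± 70 CPM (SD, n = 3). That call was lost under 7 of 16 other settings, among them the omission of any library but Th17 replicate 1. Pkm, pyruvate kinase, was at 2733, 2739 and 2752 CPM alone and at 2433, 2754 and 2682 CPM cocultured, with overlap and no call (log2 fold change -0.06, SE 0.06, adjusted p = 0.43). Pgam1 (log2 fold change 0.08, adjusted p = 0.267) and neuronal-type Eno2 (log2 fold change -0.06, adjusted p = 0.604) were likewise not called.

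At the branch between mitochondrial oxidation and lactate, 3 of 5 members fell, where 20% of all genes tested were called lower. Pdk1 (chr2:71873224-71903858, plus strand) encodes a kinase that switches off pyruvate dehydrogenase and so limits the oxidation of pyruvate in the mitochondria. It stood at 89.9, 86.8 and 88.9 CPM alone and at 59.3, 51.5 and 52.9 CPM with Th17 cells, with tight replicates and no overlap. The fall was 0.70 on the log2 scale (SE 0.08, adjusted p = 0.000102). Slc16a3 encodes MCT4, the carrier by which glycolytic cells export lactate. It was at 431, 457 and 412 CPM alone and at 301, 313 and 293 CPM cocultured, and fell by 0.52 (log2, SE 0.06, adjusted p = 0.000171). Ldha, the lactate dehydrogenase subunit that favours lactate, was at 1962, 2120 and 2068 CPM alone and at 1652, 1892 and 1854 CPM cocultured. Its fall of 0.19 (log2, SE 0.07, adjusted p = 0.0491) lay at the threshold and was lost under 11 of 16 other settings, among them the omission of any library cultured alone or of Th17 replicate 1. Slc16a1, which encodes the bidirectional carrier MCT1 (59.4 ± 2.3 against 52.0 ± 4.6 CPM, adjusted p = 0.105), and Ldhb (8.92 ± 0.62 against 9.03 ± 0.25 CPM, adjusted p = 0.933) did not pass the test (SD, n = 3). Without Th17 replicate 3, Slc16a1 was called lower (log2 fold change -0.27, edgeR adjusted p = 0.0218).

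The collagen prolyl 4-hydroxylases use oxygen to stabilise the collagen triple helix and are HIF targets in fibroblasts. P4ha1 was at 651, 659 and 677 CPM alone and at 510, 498 and 436 CPM cocultured, and fell by 0.46 (log2, SE 0.07, adjusted p = 0.000735). P4ha2 was at 721, 764 and 753 CPM alone and at 547, 554 and 542 CPM cocultured, and fell by 0.45 (log2, SE 0.05, adjusted p = 0.000154). Neither had overlapping groups. In the same libraries 12 of the 16 fibroblast markers were called lower (75%, against 20% of all genes tested). Another 2 were called higher (12.5%, against 17.1%). Of the fibrillar collagen markers, Col1a1 fell by 1.28 and Col3a1 by 2.18 on the log2 scale. The markers that rose were Dcn, by 1.5, and Pdpn, by 0.51.

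Levels of different members were compared as CPM per kb of the longest GENCODE transcript, because the lengths behind the deposited FPKM values were 0.96 to 4.6 times that length. In cells cultured alone the order was led by Ldha (1129 ± 44 CPM per kb), Pkm (1127 ± 3.8), Aldoa (878 ± 14), Tpi1 (667 ± 20), Pgk1 (613 ± 19) and Pgam1 (560 ± 24), all enzymes of the trunk of the pathway (SD, n = 3). Below them came Bnip3 (246 ± 8.6), P4ha2 (244 ± 7.3), Hif1a (234 ± 6.4) and Slc2a1 (222 ± 2.2). The lowest were Aldoc (2.70 ± 0.19), Slc2a3 (2.69 ± 0.20), Epas1 (2.18 ± 0.35) and Pfkfb4 (2.17 ± 0.57). Of 35 neighbouring pairs in this order, 14 had SD ranges that touched, among them Ldha and Pkm, Bnip3 and P4ha2, and the pairs at the lower end from Aldoc to Pfkfb4. Eno1 took place 11 and Gapdh place 26, but both places are uncertain. The near-identical Eno1b held 63.8% of the counts of its pair with Eno1. How fragments that match several genes were assigned was not stated. With Th17 cells the same 6 enzymes took the highest 6 places, Ndrg1 moved from place 14 to 23, Car9 from 30 to 34, Slc2a3 from 34 to 36, Adm from 22 to 16 and Epas1 from 35 to 29.

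**Figure D3:**
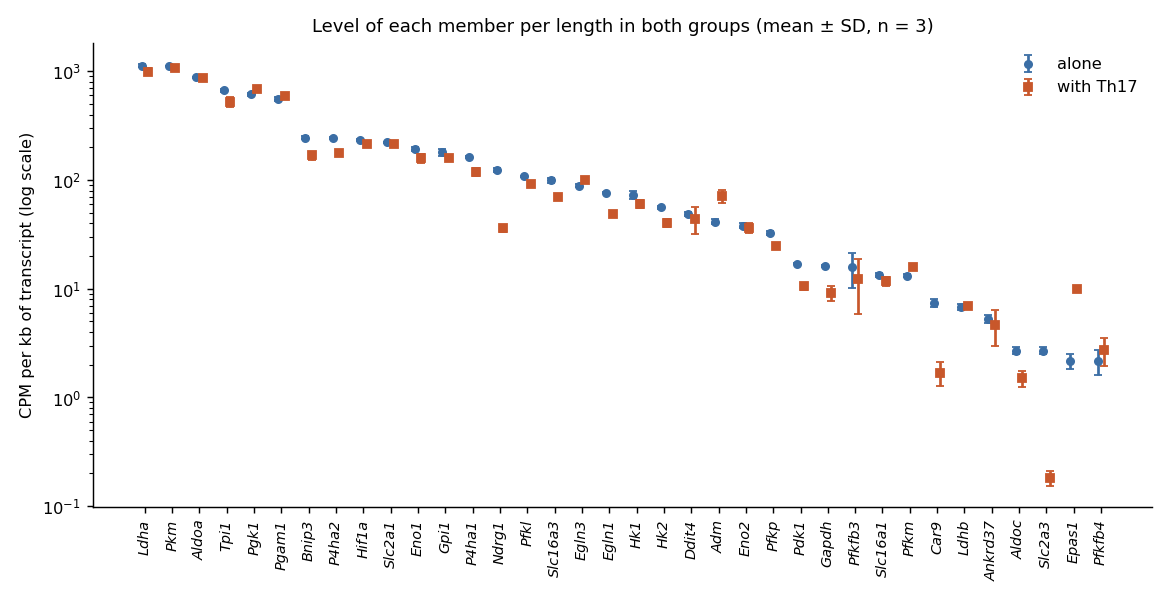
Mean level of each member in CPM per kb of its longest annotated transcript (y axis, log scale; bars ± SD, n = 3) in fibroblasts cultured alone (blue circles) and cocultured with Th17 cells (red squares), ordered by the level alone. Ldha, Pkm, Aldoa, Tpi1, Pgk1 and Pgam1 form the upper end in both groups, and the wide vertical gaps belong to Ndrg1, Car9, Slc2a3 and Epas1. The levels of Eno1 and Gapdh are uncertain because they have near-identical copies.

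Other genes of the same pathways were read from 7 lists holding 158 genes, against a background of 17.1% of all genes tested called higher and 20% called lower. In the 14 other glycolytic and gluconeogenic enzymes tested, 5 rose and 2 fell (1 without alone replicate 2), with a median log2 fold change of 0.198. Pcx, pyruvate carboxylase, which feeds pyruvate into the citric acid cycle as oxaloacetate, rose by 1.63 (log2, SE 0.13, adjusted p = 1.39e-05) from 7.20 ± 1.04 to 22.4 ± 1.18 CPM (SD, n = 3). Of 15 other glucose and monocarboxylate carriers and their regulators, 2 rose and 5 fell (median -0.014). Slc2a6 rose by 1.20 (log2, SE 0.24, adjusted p = 0.00365). Txnip, an arrestin-like protein that pulls glucose carriers from the cell surface, fell by 1.14 (log2, SE 0.11, adjusted p = 3.8e-05) from 311 ± 30 to 142 ± 19 CPM (SD, n = 3). Scarce Slc2a12, Slc16a6 and Slc16a7 also fell, with log2 fold changes of -2.15, -1.60 and -1.44, all from under 3 CPM. The call of Slc16a6 was lost without alone replicate 2 or 3 or Th17 replicate 1 or 3, and that of Slc16a7 without alone replicate 2 or 3, either of which left 3 carriers lower.

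The pentose phosphate pathway, which leaves glycolysis at glucose 6-phosphate to make NADPH and ribose, had 6 of 9 tested genes higher and none lower (66.7% and 0%, median 0.359). None passed a fold change of 2. The highest was H6pd, the enzyme of the pathway in the endoplasmic reticulum, which went from 343 ± 8.8 to 649 ± 47 CPM (SD, n = 3; log2 fold change 0.92, adjusted p = 6.7e-06) and is named after its value was seen. In the pyruvate dehydrogenase complex and its kinases and phosphatases, 3 of 10 genes rose and 1 fell (median 0.142), again within a fold change of 2. Dlat, the acetyltransferase core of the complex, rose from 109 ± 3.3 to 214 ± 7.1 CPM (SD, n = 3; log2 fold change 0.97, adjusted p = 2.49e-06), and like H6pd it is named after its value was seen. The kinases of this list moved in both directions and are also named after their values were seen. Pdk2 rose by 0.67 (log2, adjusted p = 0.00386), Pdk3 fell by 0.41 (log2, adjusted p = 0.0016) and Pdk4 was not called (adjusted p = 0.243). Glycogen metabolism had 1 higher and 4 lower of 13 tested (median -0.131), none past a fold change of 2. The number lower became 0 without alone replicate 2 or 3 and 2 without alone replicate 1 or Th17 replicate 1 or 2, and the number higher became 2 without Th17 replicate 3.

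Among 20 tested HIF regulators, 2 rose and 1 fell (median -0.0226), so most transcripts of this group, the beta subunits and the coactivators among them, were not called. The number lower became 6 without Th17 replicate 3 and 2 without alone replicate 1 or Th17 replicate 1 or 2, and the number higher became 1 without alone replicate 1 or 3. Cited2, which competes with HIF alpha for its coactivators, rose by 1.48 (log2, SE 0.08, adjusted p = 7.67e-07) from 158 ± 5.1 to 442 ± 41 CPM (SD, n = 3). The regulator called lower was Vhl, named after its value was seen. It fell by 0.54 (log2, SE 0.08, adjusted p = 0.000819) from 49.6 ± 2.2 to 34.2 ± 2.2 CPM (SD, n = 3). In the 48 other HIF target genes tested, 24 fell (50%) and 9 rose (18.8%, near the background), with a median of -0.286. Those that fell furthest were Trf, Selenbp1, Car12 and Nos2, with log2 fold changes of -2.69, -2.26, -2.26 and -1.82. Trf, transferrin, rested on uneven libraries, with 0, 5 and 29 counts in the cocultured ones, and was not called without Th17 replicate 2 (adjusted p = 0.0516) or in DESeq2. Car12 is a further cell surface carbonic anhydrase and moved with Car9, from 64.4 ± 4.3 to 13.5 ± 1.1 CPM (SD, n = 3; adjusted p = 2.36e-07). Hmox1 (heme oxygenase, 1.86), Edn1 (endothelin 1, 1.65), Kitl (stem cell factor, 1.49) and Flt1 (a VEGF receptor, 1.31) had the highest log2 fold changes among the called genes of the list, each with an adjusted p of 0.000144 or less. The other HIF targets thus held changes in both directions, as did the members. These lists were described by their counts, and no list was tested as a set.

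**Figure D4:**
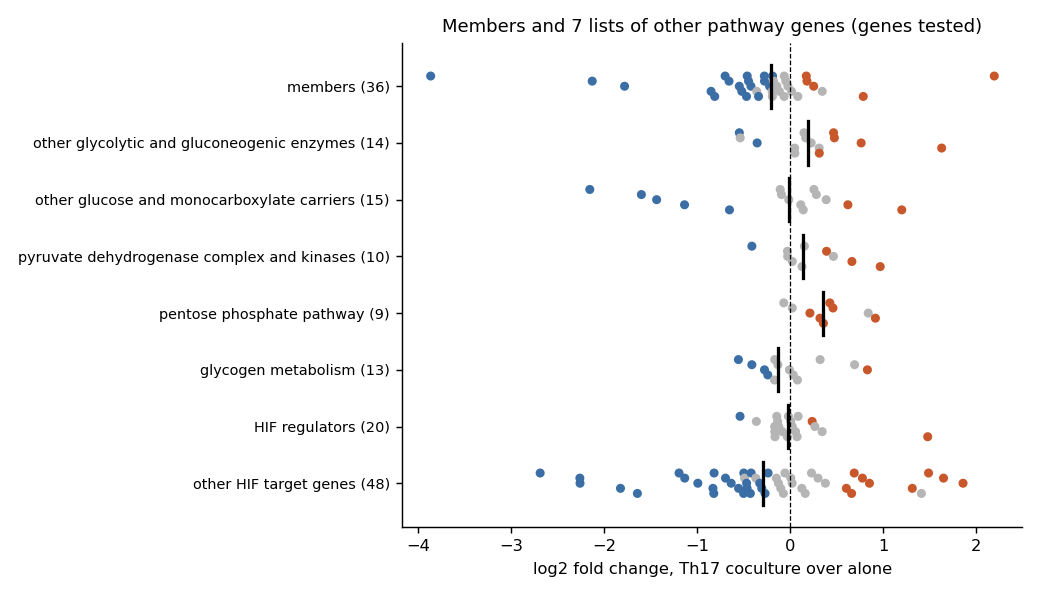
Log2 fold change (x axis, Th17 coculture over alone) of every tested gene of the module and of 7 lists of other pathway genes, with the number tested in brackets; colours as for the plot of changes by role, black bars are list medians and the dashed line is the median of all genes. The bar of the pentose phosphate list lies right of the dashed line (0.359) and those of the members (-0.21) and of the other HIF targets (-0.286) lie left of it.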

How the data were processed

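RNA was measured in 6 libraries, grouped by their titles. Per the labels, the authors prepared libraries with a VAHTS kit, sequenced them on a NovaSeq and processed reads with HISAT2 2.0.4, StringTie 1.3.3b and edgeR on mm10 (GRCm38), as the submitters' processing notes name them. The authors deposited raw fragment counts per gene and FPKM values, scaled to gene length and library total. Of the identifiers, 34344 were found in GENCODE M21. Strand use and the assignment of fragments that match several genes were not stated. Sequences came from RefSeq.

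Tests ran in edgeR 4.0.16 under R 4.3.3 (filterByExpr with a minimum count of 10, TMM, glmQLFit, glmQLFTest, two-sided, Benjamini-Hochberg over all genes), without covariates. Thresholds were an adjusted p of 0.05 and, as in the study, a fold change of 2. SE is the fold change divided by the square root of F. Scripts were tested on simulated data. Alternatives were DESeq2 1.42.0, other scalings, other filters, limma 3.58.1 on log2(FPKM + 1) and log2(FPKM + 0.1), glmTreat, a replicate block and leaving out each library. Summing near-identical copies was added after seeing the data. The floor of detection covers counting error only, while each SD and SE includes the spread among these libraries.

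The members and lists were chosen with earlier results of these data known. Per-library values are given for members past both thresholds, for an anchor set of each role and for the 4 further members with the smallest adjusted p. From each other list, genes past both thresholds with a mean of 20 counts or more in the higher group are named, at most 4 in each direction, and others are stated as chosen after their values were seen. Summaries used pandas 2.3.3 (Python 3.11.15) and plots matplotlib 3.10.9.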

Additional observations from a re-analysis of the deposited data

How the results depend on the processing

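Of the 23 called members, 16 kept their call under all 16 alternatives and none reversed. The others (Egln3, Eno1, Hk1, Ldha, Pfkl, Pfkm and Pgk1) had log2 fold changes within 0.3 of 0 and lost the call under 2 to 11 of them. The members past a fold change of 2 numbered 1 higher and 3 lower under every alternative, glmTreat included. The count of members called higher, 5, was 3 with a replicate block and 2 in DESeq2, and 2 to 4 when a library was left out. The count called lower stayed between 14 and 19, and the median of the members moved from -0.21 to -0.14 when only library size scaled the counts, and likewise to -0.14 with limma on log2(FPKM + 1), and lay between -0.26 and -0.20 when a library was left out. Scaling to library size only also moved the median of all genes, from 0.00382 to 0.0671, so the members moved with all genes. The cause of the other shifts was not tested. Signs turned only in members that were not called: Slc2a1 (0.017 under library size alone and 0.017 under limma on FPKM at both pseudocounts), Aldoa (0.041, 0.039 and 0.040 in the same order, and -0.058 to 0.015 when a library was left out, positive without Th17 replicate 2), Eno2 (0.000724 with library size only, and -0.112 to 0.019 when a library was left out, positive without Th17 replicate 3), Ldhb (-0.042 to 0.052, negative without alone replicate 3) and Ankrd37 (-0.42 to 0.075, positive without Th17 replicate 3). Limma on log2(FPKM + 1) shrank Slc2a3 to -1.18, since it is low against the pseudocount. Same-numbered libraries did not deviate together over the genes tested (correlations 0.0157, -0.0256 and -0.0036). Such correlations cannot exclude a pairing by design, and the labels state none. With the replicate block in edgeR, Pfkfb3 was called (adjusted p = 0.0345), 19 members were called lower, and the median was -0.22. With 3 libraries a group, calls on changes as small as those of Ldha and Pgk1 depended on the library left out and on the setting.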

Other observations

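Some transcripts of the other HIF targets rested on single libraries and were not called. Ak4, an adenylate kinase of the mitochondrial matrix, had 203, 174 and 172 counts in cells cultured alone and 164, 189 and 1187 counts in cocultured cells (adjusted p = 0.13). Rora, a nuclear receptor, had 706, 286 and 594 counts alone and 713, 659 and 689 counts cocultured (adjusted p = 0.404). Vegfa, the main angiogenic HIF target, stood at 595 ± 89 CPM alone and at 775 ± 138 CPM cocultured (SD, n = 3; log2 fold change 0.38, adjusted p = 0.0658). Lox, lysyl oxidase, which crosslinks collagen and is a HIF target, rose by 0.85 on the log2 scale (adjusted p = 3.73e-06), while Plod2, a collagen lysyl hydroxylase and also a HIF target, fell by 0.83 (adjusted p = 5.42e-06) in the same libraries. These genes were chosen after their values were seen.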
